A study of Mus musculus with 12 samples.

Results

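Collagen chain genes are the genes that encode the alpha chains of the collagens, and they were taken here as every gene whose platform symbol reads Col, a number, the letter a and a number. The rule found 42 of the 18193 genes on the array, measured by 82 of its 45101 probe sets. The cells were B16-F10, a mouse melanoma line long kept in culture. They had received the pMES plasmid, whose chick beta-actin promoter drives one transcript for the inserted gene and for EGFP. The empty-vector group received pMES with no insert, the FoxD3 group pMES with chicken FoxD3, and the FoxD3-VP16 group pMES with a FoxD3 whose C-terminal part, which holds its repression domain, was exchanged for the activator VP16 of a herpesvirus. Each of the 3 groups has 4 one-colour arrays of RNA from cells sorted for EGFP 24 h after transfection, so all 12 arrays come from transfected, EGFP-positive cells of 1 line grown in the same medium. The groups therefore describe a short, plasmid-driven expression in tumour cells, and no label says whether the arrays numbered 1 to 4 came from separate cultures. P-values therefore reflect only how these arrays differ within a group, and part of that may be technical.

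Collagens are triple helices of 3 alpha chains that are secreted and assembled outside the cell. Fibrillar collagens form the banded fibrils of bone, skin, tendon and cartilage; network collagens such as type IV form the sheet of basement membranes; FACIT collagens sit on the surface of fibrils and link them to other matrix; type VII forms the anchoring fibrils that tie the basement membrane of the skin to the dermis. FoxD3, a forkhead factor, acts in the young neural crest, the embryonic cells from which melanocytes, and in the head also cartilage and bone, derive. The FoxD3 and empty-vector arrays address what the factor changes, and the FoxD3-VP16 arrays what the same DNA-binding part does with an activation domain in place of the repression domain.

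Values are log2(intensity + 16), where 16 is a pseudocount that shrinks the change of dim genes, after quantile normalization of all arrays. For a gene with several probe sets, the one with the highest mean was taken. The 40% of genes with the lowest mean over the 12 arrays, those below 5.98, are called dim and were left out of the test. That left 18 of the 42 collagen chain genes tested and 24 dim. A second fit without this limit took in all 42 and called none of the 24 dim members in any comparison (adjusted p of 0.214 or above, limma). That fit called 1.44% of all 18193 genes higher and 0.478% lower for FoxD3 against the empty vector. For FoxD3-VP16 against FoxD3 these shares were 2.21% and 2.53%. The share for FoxD3-VP16 against the empty vector, and any share among dim genes alone, was not counted. With shares this small, a count of 0 does not set the dim members apart. Of the fibrillar collagens 7 of 11 were tested, of the network collagens 4 of 9, of the FACIT collagens 5 of 9, of the multiplexins 1 of 2 and of the other collagens 1 of 2. None of the 5 beaded filament chains (type VI) and none of the 4 transmembrane chains (Col13a1, Col17a1, Col23a1 and Col25a1) reached the limit. Just inside the limit lay Col14a1 at a mean of 6.26, and just outside it Col6a2 at 5.93 and Col8a2 at 5.88. A brighter probe set does not mean a more abundant transcript, so no level of one gene is set against another's. In bulk samples, fewer expressing cells and less RNA per cell cannot be told apart.

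The limit was set on the mean of all arrays, so a gene can clear it through one group. Col2a1 and Col1a1 did so: without the 4 FoxD3 arrays their means over the other 8 arrays were 5.08 and 5.66, below the limit. The other 16 tested members had means above the limit without their highest group. Called means an adjusted p (Benjamini-Hochberg over all genes tested, limma) under 0.05. The arrays numbered 1 stood apart in technical controls. Spiked hybridization controls lay at 14.5 to 14.7 on them, at 12.9 to 13.1 on the arrays numbered 2, and at 11.8 to 12 on those numbered 3 and 4. In the same order, the difference between the 3' and 5' probe sets of Gapdh was 0.56 to 0.77, -0.06 to 0.04, and -0.25 to -0.11. Each number occurs once in every group, and with the arrays numbered 1 left out the calls among collagen chain genes numbered 8, 0 and 10 in the 3 comparisons, beside 8, 0 and 9 with all arrays. The calls over all genes in that smaller fit are not given here, so these counts alone do not show how much the arrays numbered 1 matter.

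Upstream sequence is shown for Col11a2 and Col7a1, the members with the largest rises with FoxD3 among those matched to a promoter entry, and for Col9a1, the member with the largest rise with FoxD3-VP16 over FoxD3. The 250 bases before the annotated start are printed 5′ to 3′ on the gene's strand, from RefSeq on build GRCm38.p6. All these genes lie on the plus strand, at chr17:34038888-34039137 for Col11a2, chr9:108953336-108953585 for Col7a1 and, for the 2 starts annotated for Col9a1, chr1:24177360-24177609 and chr1:24194953-24195202. Capitals mark a TATAAA and an overlapping TAAACA, the reverse complement of TGTTTA.
Col11a2: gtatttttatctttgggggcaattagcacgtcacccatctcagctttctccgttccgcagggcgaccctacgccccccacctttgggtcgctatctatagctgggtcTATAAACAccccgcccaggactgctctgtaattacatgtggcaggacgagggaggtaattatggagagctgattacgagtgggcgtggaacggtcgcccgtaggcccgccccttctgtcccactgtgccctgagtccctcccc
Col7a1: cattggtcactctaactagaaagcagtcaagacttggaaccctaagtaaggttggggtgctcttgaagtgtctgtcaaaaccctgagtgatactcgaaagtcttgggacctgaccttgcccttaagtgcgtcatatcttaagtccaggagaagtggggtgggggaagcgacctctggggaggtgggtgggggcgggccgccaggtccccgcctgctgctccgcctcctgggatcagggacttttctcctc
Col9a1, first start: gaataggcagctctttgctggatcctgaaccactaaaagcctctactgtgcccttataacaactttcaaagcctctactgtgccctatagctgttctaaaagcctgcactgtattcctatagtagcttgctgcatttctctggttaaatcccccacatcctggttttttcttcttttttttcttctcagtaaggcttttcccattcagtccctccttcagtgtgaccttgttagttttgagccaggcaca
Col9a1, second start: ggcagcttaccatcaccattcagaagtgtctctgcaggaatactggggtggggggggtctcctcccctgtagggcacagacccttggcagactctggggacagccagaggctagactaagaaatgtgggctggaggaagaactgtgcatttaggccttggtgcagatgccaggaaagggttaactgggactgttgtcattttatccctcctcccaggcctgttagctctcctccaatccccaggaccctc
Of the 42 members 33 matched an entry; Col12a1, Col14a1, Col1a1, Col22a1, Col26a1, Col2a1, Col4a3, Col5a2 and Col9a3 are not printed.

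The letters searched on both strands were TGTTTA and TGTTTG, forms of the forkhead core; ACAAAG, a form of the core bound by SOX factors; and TATAAA, the TATA box. Either forkhead form occurred in 25.3% of the 32851 promoter windows in the table (TGTTTA in 12%, TGTTTG in 16%), ACAAAG in 16.5% and TATAAA in 12.4%. Of the 33 matched members, 6 held a forkhead form and 3 held ACAAAG. Among the 5 matched members that rose with FoxD3, Col11a2 alone held one, a TGTTTA on the minus strand whose first printed base lies 141 bases before the start, overlapping a TATAAA that begins 143 bases before it. None of the 9 matched members that were tested and did not pass with FoxD3 held a forkhead form, and 1 held ACAAAG. The windows of Col7a1 and Col9a1 printed above held none of these letters. A match describes letters in a window and is not a binding site.

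With FoxD3, a set of fibrillar, FACIT and anchoring-fibril chains rose over the empty vector and none fell. Col2a1, the chain of cartilage type II collagen, rose by 4.52 (SE 0.54) from a dim control level, and by 3.27 to 5.69 with other pseudocounts. Col11a2, a chain of the cartilage fibril collagen XI, rose by 2.80 (SE 0.44), or 2.06 to 3.30 with other pseudocounts, Col1a1, the main chain of type I collagen, by 2.68 (SE 0.51), and Col7a1, the chain of anchoring fibrils, by 2.49 (SE 0.25). Col9a3, Col27a1, Col16a1 and Col5a1 rose by 1.31 to 1.72. Of the 18 tested members 8 (44.4%) were called higher and 0 lower, beside 2.89% of all tested genes called higher and 1.12% lower. Fitted with no limit on dim genes, the count was also 8 of 42, beside 1.44% of all 18193 genes higher and 0.478% lower. The median change was 0.70 over the 18 tested members and -0.0041 over all genes tested. Over all 42 members, dim ones included, it was 0.25.

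By class, 5 of the 7 tested fibrillar members rose, 0 of the 4 network members, 2 of the 5 FACIT members and Col7a1. Over all members, dim ones included, the counts were 5 of 11 fibrillar, 0 of 9 network and 2 of 9 FACIT members, and 2 of the fibrillar 5, Col1a1 and Col2a1, cleared the limit through the FoxD3 arrays. At an unadjusted p under 0.05, 10 tested members were higher and 1 lower, beside 9.39% and 6.75% of all tested genes. Of the 4 tested network members 2 were among the higher ones and 1 was the lower one. The count of 0 called network members therefore does not show that these chains stayed unchanged. The 4 FoxD3 arrays lay wholly above the 4 empty-vector arrays for 9 tested members and wholly below them for none, against 11.5% of all tested genes whose 2 groups did not overlap in either direction. The spread could also be estimated with the replicate number as a block, which removes differences shared by arrays of one number. That fit called 9 members higher and 2 lower, beside 11.8% and 9.21% of all tested genes, and its additional calls are Col4a1, Col4a5 and Col9a1.

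**Figure D1:**
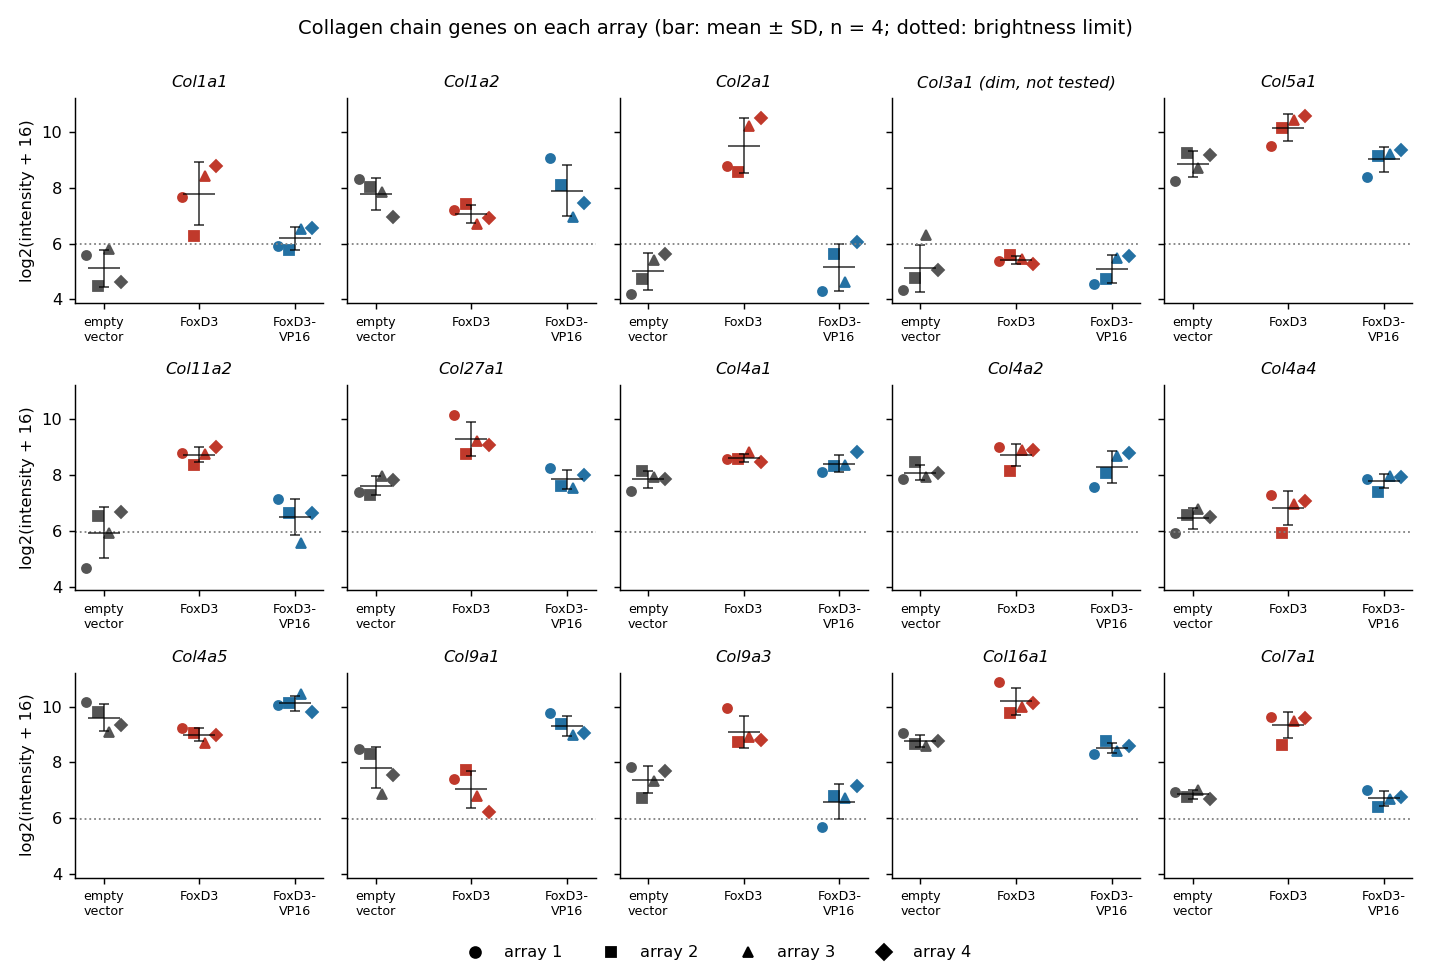
Log2(intensity + 16) of 15 collagen chain genes (panels; vertical axis) on each of the 12 arrays, by transfection (horizontal axis); points are arrays marked by their number, bars the mean with SD (n = 4), and the dotted line is the limit of 5.98 for dim genes. For Col2a1 the FoxD3 arrays lie between 8.57 and 10.5, above all 8 other arrays, and for Col9a1 the FoxD3-VP16 arrays lie between 9.0 and 9.78, above all 8 others.

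Among the fibrillar collagens, Col2a1 (probe set 1450567_a_at, Entrez 12824, its only probe set) measured 4.20, 4.74, 5.43 and 5.63 on the empty-vector arrays 1 to 4, and 8.77, 8.57, 10.2 and 10.5 on the FoxD3 arrays. The empty-vector mean was 5.0 ± 0.66 (SD, n = 4), below the limit for dim genes, and the FoxD3 mean 9.52 ± 0.99. All 4 FoxD3 arrays were above all empty-vector arrays (adjusted p = 0.000627, limma). Because the empty-vector level is dim, the size depends on the pseudocount: it was 5.69 with a pseudocount of 1 and 3.27 with 64. Fitted with no limit on dim genes the adjusted p was 0.000541.

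Col1a1 and Col1a2, whose products join in type I collagen at 2 chains to 1, did not move alike. Col1a1 (probe set 1423669_at, Entrez 12842) lay at 5.58, 4.47, 5.80 and 4.62 with the empty vector and at 7.69, 6.27, 8.44 and 8.78 with FoxD3. The groups did not overlap, and the means were 5.12 ± 0.67 and 7.80 ± 1.12 (SD, n = 4; adjusted p = 0.0102, limma; 0.0123 with no limit on dim genes). The Col1a1 call rests on few arrays: its limma adjusted p was 0.195 without empty-vector array 3, 0.200 without FoxD3 array 3, 0.241 without FoxD3 array 4, and 0.0994, 0.117 and 0.0845 without FoxD3-VP16 arrays 2, 3 and 4, which enter through the shared spread. With a pseudocount of 64 the change was 1.49 (adjusted p = 0.0620). Col1a2 (1450857_a_at, Entrez 12843) measured 8.32, 8.02, 7.85 and 6.97 with the empty vector and 7.22, 7.43, 6.71 and 6.91 with FoxD3. Each FoxD3 array was below the empty-vector array of its number, the groups overlapped, and the change of -0.72 did not pass (95% interval -1.62 to 0.19, adjusted p = 0.448, limma). The difference between the changes of Col1a1 and Col1a2 was not tested.

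Col11a2 (1423578_at, Entrez 12815, 1 probe set) lay at 4.66, 6.52, 5.91 and 6.68 with the empty vector and at 8.81, 8.38, 8.75 and 9.01 with FoxD3. The FoxD3 arrays were close together and all above the control arrays, with means of 8.74 ± 0.26 and 5.94 ± 0.92 (SD, n = 4; adjusted p = 0.00287, limma). For Col27a1 (1453191_at, Entrez 373864), a fibrillar chain of cartilage, the empty-vector values were 7.41, 7.30, 7.98 and 7.83, and the FoxD3 values 10.2, 8.75, 9.24 and 9.08. FoxD3 array 1 was the highest, and the change of 1.68 (SE 0.30) had an adjusted p of 0.00611 (limma). Col5a1 (1416740_at, Entrez 12831), a chain of the type V collagen that takes part in starting fibrils, measured 8.26, 9.26, 8.72 and 9.17 with the empty vector and 9.50, 10.2, 10.4 and 10.6 with FoxD3. The groups did not overlap (change 1.31, SE 0.29, adjusted p = 0.0253, limma), and the Col5a1 adjusted p was 0.0572 and 0.0772 without empty-vector arrays 1 and 3, and 0.0558, 0.0856 and 0.0952 without FoxD3 arrays 2, 3 and 4.

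Col3a1 (1427883_a_at, Entrez 12825), the chain of the type III collagen of skin and vessels, was dim. It measured 4.36, 4.77, 6.31 and 5.04 with the empty vector, 5.38, 5.59, 5.44 and 5.25 with FoxD3, and 4.57, 4.73, 5.50 and 5.57 with FoxD3-VP16. The 3 groups overlapped, and its adjusted p in the fit without the limit was 0.886 with FoxD3 (limma). Col5a3, the last tested fibrillar member, changed by 0.27 with FoxD3 without passing (95% interval -0.43 to 0.97). The 4 dim fibrillar members, Col3a1, Col5a2, Col11a1 and Col24a1, differed by -0.42 to 0.30.

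Among the network collagens the 4 tested members were chains of type IV, the collagen of basement membranes, and none was called with FoxD3. Col4a1 (1452035_at, Entrez 12826) measured 7.43, 8.16, 7.94 and 7.87 with the empty vector and 8.59, 8.58, 8.82 and 8.48 with FoxD3. The FoxD3 arrays were all higher, by a mean of 0.76 (SE 0.21), with an adjusted p of 0.0619 (limma) and 0.00984 with the replicate block. Without empty-vector array 2 the unblocked adjusted p of Col4a1 was 0.0443, and without FoxD3-VP16 array 1 it was 0.0446. Col4a2 (1424051_at, Entrez 12827), whose chain pairs with that of Col4a1 and whose gene is its neighbour in RefSeq, lay at 7.87, 8.48, 7.95 and 8.07 with the empty vector and at 9.0, 8.15, 8.90 and 8.89 with FoxD3. FoxD3 array 2 lay within the control range and the other 3 above it, and the change of 0.64 did not pass (95% interval 0.02 to 1.26, adjusted p = 0.289, limma).

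Col4a5 (1425476_at, Entrez 12830), a chain of the type IV collagen of kidney and other specialised basement membranes, measured 10.2, 9.82, 9.09 and 9.36 with the empty vector and 9.25, 9.05, 8.69 and 8.99 with FoxD3. Each FoxD3 array was below the empty-vector array of its number, but the groups overlapped (change -0.61, adjusted p = 0.198, limma, and 0.0349 with the replicate block). Col4a4 (1445328_at, Entrez 12829), whose chain joins with that of Col4a5 in the same network, was at 5.92, 6.56, 6.79 and 6.52 with the empty vector and at 7.31, 5.92, 6.96 and 7.09 with FoxD3. The groups overlapped, and the change of 0.37 did not pass (95% interval -0.32 to 1.07). Among the 5 dim network members changes ran from -1.07 for Col4a6 to 1.23 for Col8a1. Col8a1, a chain of the collagen beneath the corneal and vascular endothelium, was named because its groups did not overlap: it measured 4.68, 4.17, 4.48 and 4.16 with the empty vector and 6.18, 6.07, 5.24 and 4.94 with FoxD3. It did not pass in the fit without the limit (adjusted p = 0.214, limma). The other probe sets of Col8a1, also dim, differed by -0.02 and -0.09 with FoxD3. How often the groups of dim genes do not overlap was not counted.

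Type IX collagen is a FACIT collagen of cartilage fibrils, and of its chains Col9a3 was called with FoxD3 and Col9a1 was not. Col9a3 (1460734_at, Entrez 12841) measured 7.83, 6.71, 7.33 and 7.69 with the empty vector and 9.96, 8.75, 8.91 and 8.79 with FoxD3. All FoxD3 arrays were higher, array 1 by the most (change 1.72, SE 0.37, adjusted p = 0.0209, limma). The Col9a3 adjusted p was 0.0616 without empty-vector array 3, 0.0544 without FoxD3 array 1 and 0.0539 without FoxD3 array 3, and with the mean of its 3 probe sets the change was 0.64 (adjusted p = 0.244). Col9a1 (1428571_at, Entrez 12839) was at 8.48, 8.32, 6.89 and 7.54 with the empty vector and at 7.40, 7.74, 6.79 and 6.21 with FoxD3. Each FoxD3 array was below its number's control array while the groups overlapped (change -0.77, adjusted p = 0.365, limma, and 0.0265 with the replicate block). The second probe set of Col9a1 differed by -0.11 and was not called (adjusted p = 0.879 with the block, limma). The difference between the changes of Col9a3 and Col9a1 was not tested, and Col9a2 was dim.

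Col16a1 (1427986_a_at, Entrez 107581, 1 probe set), a FACIT chain of skin and cartilage matrix, measured 9.07, 8.66, 8.59 and 8.75 with the empty vector and 10.9, 9.77, 10.0 and 10.1 with FoxD3. The groups were clearly apart, with a change of 1.43 (SE 0.23, adjusted p = 0.00339, limma). The other tested FACIT members, Col14a1 and Col20a1, changed by -0.27 and -0.31 and did not pass, with 95% intervals of -0.91 to 0.37 and -1.44 to 0.81. Outside these classes, Col7a1 (1419613_at, Entrez 12836, 1 probe set) lay at 6.94, 6.75, 7.02 and 6.71 with the empty vector and at 9.63, 8.64, 9.50 and 9.61 with FoxD3. FoxD3 array 2 was the lowest of its group and still above every control array (means 6.86 ± 0.15 and 9.34 ± 0.47, SD, n = 4; adjusted p = 0.000239, limma). Col15a1, a multiplexin of basement membrane zones, changed by -0.39 without passing (95% interval -1.11 to 0.33). The dim beaded filament members differed by -0.39 to 0.31 and the dim transmembrane members by -0.36 to 0.73.

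**Figure D2:**
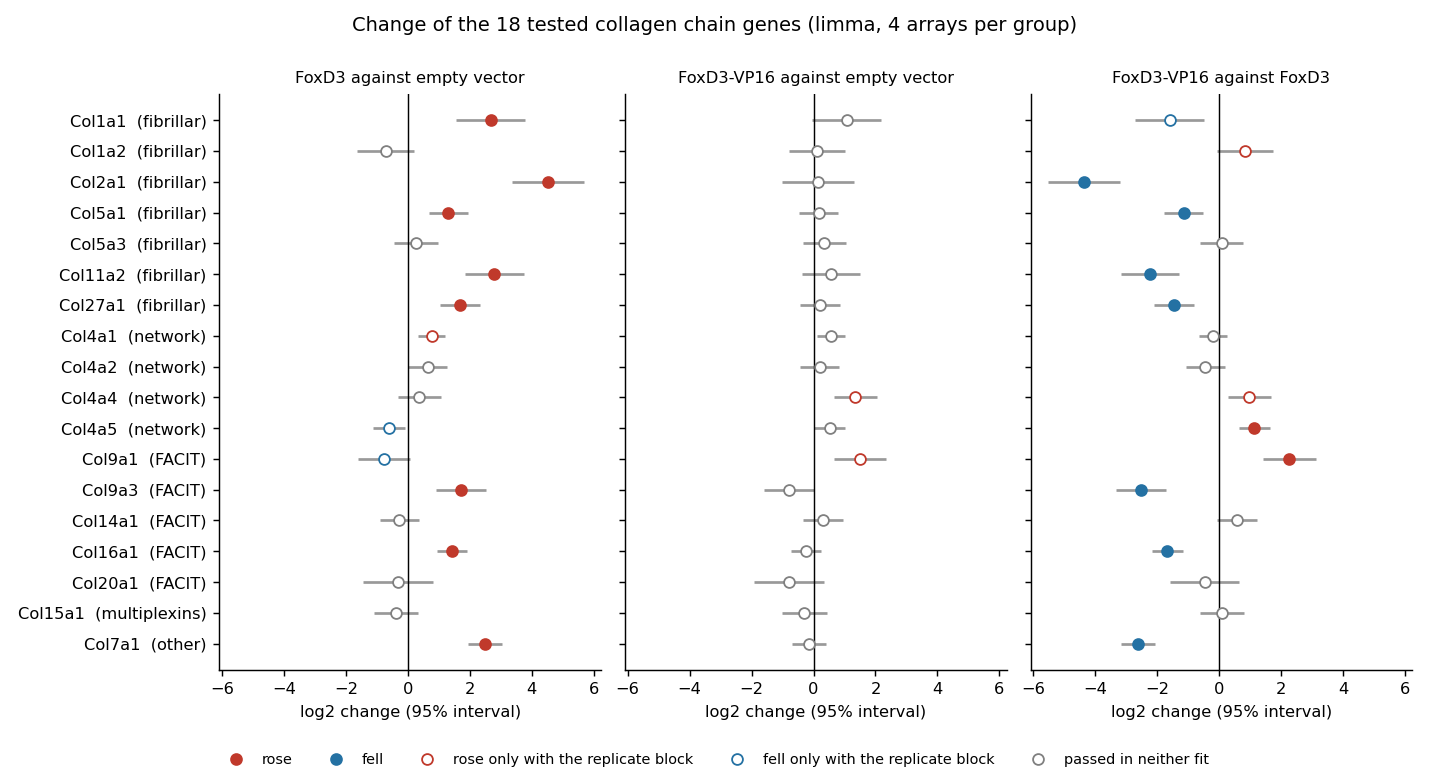
Change in log2(intensity + 16) (horizontal axis) of the 18 tested collagen chain genes (rows, with their class) in the 3 comparisons (panels); points are limma estimates and bars 95% intervals, filled where called without the block and open and coloured where called with the replicate block alone. The left panel has 8 filled points to the right of 0, the middle panel none, and the right panel 7 to the left and 2 to the right.

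With FoxD3-VP16, few of all tested genes were called against the empty vector, and no collagen chain gene was among them. With so few calls, a count of 0 does not set the members apart. Limma called 0 of the 18 tested members, beside 0.522% of all tested genes higher and 0.0733% lower, and at an unadjusted p under 0.05 there were 4 higher and 0 lower, beside 5.51% and 4.84% of all tested genes. Leaving out FoxD3 array 2, which enters through the shared spread, gave 1 call, Col4a4 (adjusted p = 0.0461). With the replicate block 2 members rose, Col9a1 and Col4a4, and 0 fell, beside 5.73% and 5.41% of all tested genes. The groups did not overlap for 2 tested members, both higher with FoxD3-VP16, against 5.71% of all tested genes. The median change was 0.21 over the 18 tested members and -0.019 over all genes tested. Over all 42 members, dim ones included, it was 0.16.

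The member with the highest estimate was Col9a1, which measured 9.78, 9.39, 9.0 and 9.04 on the FoxD3-VP16 arrays 1 to 4, above all 4 empty-vector arrays. Its change was 1.5 (SE 0.39), with an adjusted p of 0.144 (limma) and 0.00151 with the block. The second probe set of Col9a1 changed by 0.51 and was not called (adjusted p = 0.401 with the block, limma). Col4a4 measured 7.85, 7.41, 7.96 and 7.94 with FoxD3-VP16, also above all empty-vector arrays (change 1.34, SE 0.32, adjusted p = 0.102, limma, and 0.0115 with the block). This holds for 1 probe set: the others of Col4a4 changed by 0.50 and 0.59 (adjusted p = 0.533 and 0.274 with the block, limma). For every tested fibrillar chain the FoxD3-VP16 values overlapped the empty-vector values. Col2a1 measured 4.29, 5.62, 4.61 and 6.08, a change of 0.15 with a 95% interval of -1.01 to 1.31. Col11a2 measured 7.13, 6.65, 5.58 and 6.63 (change 0.55, interval -0.39 to 1.5), Col27a1 8.25, 7.60, 7.55 and 7.99 (0.22, -0.42 to 0.86), and Col5a1 8.38, 9.15, 9.20 and 9.35 (0.17, -0.47 to 0.80). These intervals leave room for changes of over 1 in Col2a1 and Col11a2 that the 4 arrays a group could not show.

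Type I chains measured 5.91, 5.78, 6.53 and 6.55 for Col1a1, higher than the control array of the same number in 4 of 4 pairs, and 9.08, 8.12, 6.95 and 7.46 for Col1a2. Neither passed: the changes were 1.07 (95% interval -0.04 to 2.18) and 0.12 (-0.79 to 1.02). The second probe set of Col1a1, with a mean of 6.35 beside 6.37, changed by 0.12 (adjusted p = 0.998, limma). Col7a1 measured 7.02, 6.39, 6.68 and 6.77, Col16a1 8.32, 8.76, 8.42 and 8.58, and Col9a3 5.69, 6.80, 6.72 and 7.14, with changes of -0.14 (-0.68 to 0.40), -0.25 (-0.74 to 0.25) and -0.80 (-1.60 to 0.00). Col9a3 on FoxD3-VP16 array 1 was the lowest of that gene's 12 values. Among the type IV chains Col4a1 measured 8.12, 8.34, 8.37 and 8.84, Col4a2 7.59, 8.07, 8.69 and 8.81, and Col4a5 10.1, 10.1, 10.5 and 9.81. Their changes were 0.56, 0.20 and 0.52, none of them called. The dim Col8a1 measured 6.80, 4.92, 4.88 and 5.59, above all 4 empty-vector arrays (difference 1.17; adjusted p = 0.468 in the fit without the limit, limma). Its other probe sets differed by 1.13 and -0.19.

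Set directly against FoxD3, the FoxD3-VP16 arrays were lower for 7 chains, among them Col2a1 and Col7a1, and higher for Col9a1 and Col4a5. This comparison uses the same FoxD3 arrays as the first and the same FoxD3-VP16 arrays as the second, so it is not independent of either. Limma called 2 of the 18 tested members (11.1%) higher and 7 (38.9%) lower, beside 4.44% and 5.13% of all tested genes. It called 9 of all 42 with no limit on dim genes, beside 2.21% of all genes higher and 2.53% lower. With the replicate block 4 rose and 8 fell, beside 14.6% and 17.5% of all tested genes. Groups did not overlap for 3 tested members with FoxD3-VP16 higher and 7 with it lower, against 18.2% of all tested genes in either direction. The median change was -0.46 over the 18 tested members and -0.027 over all genes tested. Over all 42 members, dim ones included, it was -0.11.

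Of the 7 tested fibrillar members 4 fell, with changes of -4.37 for Col2a1 (SE 0.54, adjusted p = 0.000302, limma), -2.24 for Col11a2 (SE 0.44, adjusted p = 0.00566), -1.46 for Col27a1 (SE 0.30, adjusted p = 0.00758) and -1.15 for Col5a1 (SE 0.29, adjusted p = 0.0275). With pseudocounts of 64 and 1 the change was -3.19 and -5.45 for Col2a1, whose FoxD3-VP16 mean of 5.15 is dim and which cleared the limit through the FoxD3 arrays, and -1.75 and -2.49 for Col11a2. For each of the 4 the FoxD3-VP16 arrays lay wholly below the FoxD3 arrays. The Col5a1 adjusted p was 0.0528, 0.0865 and 0.0959 without FoxD3 arrays 2, 3 and 4, and 0.0588, 0.0516 and 0.0533 without FoxD3-VP16 arrays 1, 2 and 3. Col1a1 differed by -1.60 and the groups overlapped (adjusted p = 0.0691, limma, 0.00613 with the block, and 0.0103 without FoxD3 array 2). Col1a2 differed by 0.84, higher with FoxD3-VP16 in 4 of 4 pairs (adjusted p = 0.260, limma, and 0.0355 with the block). Its other probe sets differed by 0.33 and 0.64 (adjusted p = 0.573 and 0.172 with the block, limma).

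Col7a1 fell by 2.63 (SE 0.25, 6.18-fold, adjusted p = 7.08e-05, limma), and the FACIT chains Col9a3 and Col16a1 fell with changes of -2.52 (SE 0.37, adjusted p = 0.000983) and -1.67 (SE 0.23, adjusted p = 0.000614). Col9a1 rose by 2.27 (SE 0.39, 4.81-fold, adjusted p = 0.00271, limma), so the chains of type IX collagen were called in opposite directions in this comparison. Of the type IV chains Col4a5 rose by 1.13 (SE 0.23, adjusted p = 0.00855, limma), all 4 FoxD3-VP16 arrays lying above the FoxD3 arrays. Col4a4 was higher by 0.97 with no overlap (adjusted p = 0.0786, limma, and 0.0204 with the block; 0.0356 without a block when the arrays numbered 1 were left out). The other probe sets of Col4a4 differed by 0.05 and 0.56 (adjusted p = 0.953 and 0.203 with the block, limma). Col4a1 and Col4a2 differed by -0.20 and -0.44 and did not pass, with 95% intervals of -0.65 to 0.25 and -1.07 to 0.18. Among dim members, Col13a1, a transmembrane chain, measured 4.25, 5.62, 5.20 and 5.06 with FoxD3 and 6.53, 5.68, 5.70 and 6.07 with FoxD3-VP16, without overlap. It did not pass in the fit without the limit (adjusted p = 0.274, limma).

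Probe sets of one gene did not always agree, which bears on the sizes. Of the 42 members 27 have several probe sets, and Col2a1, Col11a2, Col16a1 and Col7a1 have 1 each. With FoxD3, the 3 probe sets of Col5a1 changed by 1.31, 1.39 and 2.46, each called when every probe set was tested on its own. The second probe set of Col1a1 changed by 2.18 (adjusted p = 0.119, limma) and that of Col27a1 by 1.07 (adjusted p = 0.149), while that of Col4a1 differed by -0.01. The other tested probe set of Col9a3 changed by 0.70 (adjusted p = 0.351), and its dim one differed by -0.50. Between FoxD3-VP16 and FoxD3 the second probe set of Col4a5 rose by 1.60 (adjusted p = 0.0364, limma), that of Col9a1 differed by 0.62 (adjusted p = 0.397), and that of Col9a3 by -0.78 (adjusted p = 0.163). With the mean of all probe sets of a gene, Col9a1 rose by 1.44 and Col9a3 fell by 0.98 in this comparison, and both stayed called. Which transcripts each probe set reads was not examined.

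**Figure D3:**
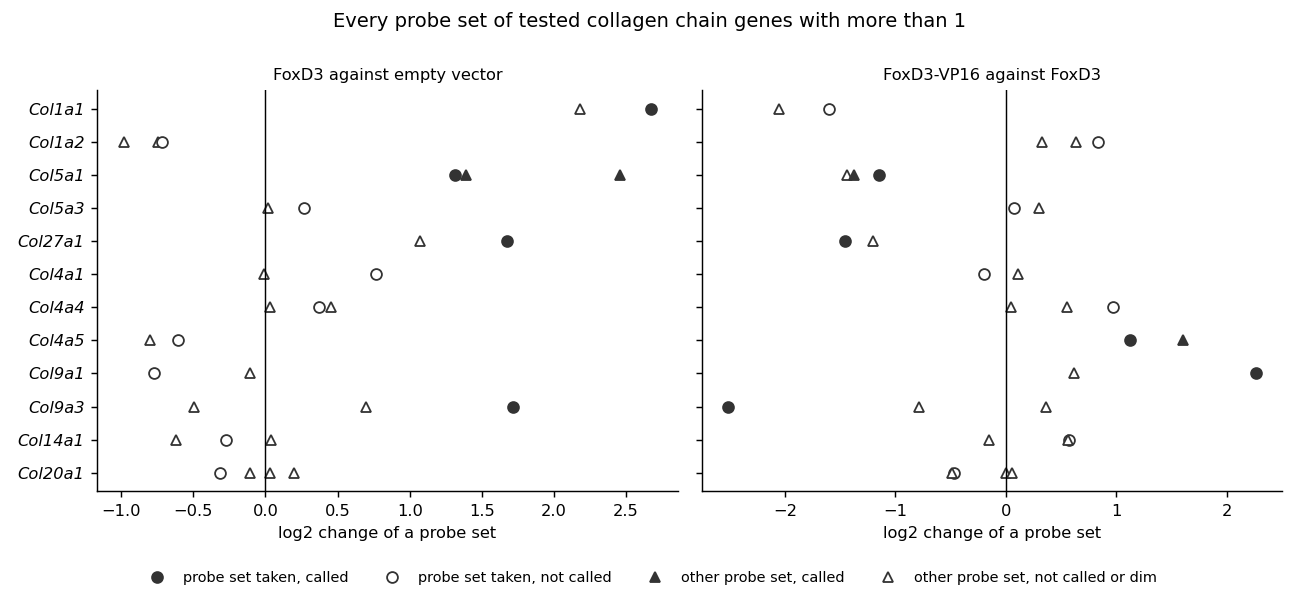
Change in log2(intensity + 16) (horizontal axis) of every probe set of the tested collagen chain genes that have more than 1 (rows), for FoxD3 against the empty vector and FoxD3-VP16 against FoxD3 (panels). Each point is a probe set; the 3 points of Col5a1 lie between 1.31 and 2.46 in the left panel, and those of Col9a3 between -0.50 and 1.72.

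Genes that make, process and bind collagen were read from 6 lists beside the chains. Of 16 tested genes of collagen modification and folding none was called in any comparison without the block. With it 4 of the 16 rose with FoxD3, beside the 11.8% of all tested genes: P4ha2, a prolyl hydroxylase subunit, by 0.98; Serpinh1, the collagen chaperone of the endoplasmic reticulum, by 0.85; Plod3, a lysyl hydroxylase, by 0.68; and P4hb, the other prolyl hydroxylase subunit, by 0.29. Their adjusted p-values were 0.210, 0.195, 0.113 and 0.199 without the block (limma) and 0.00297, 0.000262, 0.0243 and 0.00995 with it. Against FoxD3, with the block, 1 of the 16 rose with FoxD3-VP16 and 8 fell, beside the 14.6% and 17.5% of all tested genes; against the empty vector 0 rose and 1 fell, beside 5.73% and 5.41%. The list's median change was 0.28 with FoxD3 and -0.32 for FoxD3-VP16 against FoxD3.

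In procollagen processing and crosslinking 3 of the 10 genes on the array were tested, and none was called without the block. With it all 3 rose with FoxD3, where 11.8% of all tested genes did: Bmp1, which cleaves the C-terminal propeptide, by 0.87, Pcolce, which enhances that cleavage, by 0.77, and Loxl3, a lysyl oxidase, by 0.65 (adjusted p = 0.0252, 0.000230 and 0.00535 with the block, limma; 0.0998, 0.301 and 0.110 without). Against FoxD3, with the block, Pcolce and Loxl3 were lower with FoxD3-VP16, by a change of -0.55 and -0.56. Of 6 tested collagen receptors and 5 tested collagen-cleaving proteases and inhibitors none was called without the block in any comparison. With it, Ddr2, a receptor kinase for fibrillar collagen, differed by -0.30 with FoxD3, and Timp2, an inhibitor of matrix metalloproteinases, by 0.52. Between FoxD3-VP16 and FoxD3 the block called Itga1, the integrin alpha chain of a collagen receptor, higher by 1.08, Ddr2 higher by 0.44, Ddr1, the other receptor kinase, lower (-0.55) and Timp2 lower (-0.38). Of all tested genes the block called 14.6% higher and 17.5% lower in this comparison, and 9.21% lower with FoxD3. The 9 collagen-binding small proteoglycans on the array were all dim.

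Of the cartilage matrix and regulator genes 4 of 11 were tested: Sox5, Sox6, Sox9 and Matn3. Sox6, a partner of Sox9 in activating type II collagen in cartilage, fell by 0.99 with FoxD3 (SE 0.15, adjusted p = 0.00235, limma), and rose by 0.84 with FoxD3-VP16 over FoxD3 (adjusted p = 0.00313). Sox5 was higher by 0.70 in the latter comparison (adjusted p = 0.0977, limma, and 0.0386 with the block). Sox9 differed by -0.66 with FoxD3 (adjusted p = 0.479), Sox5 by -0.43 and Matn3 by -0.43, none of them called. Acan, the main proteoglycan of cartilage, was dim and differed by 0.00 with FoxD3.

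Markers of the labelled cell type were measured on every array. All 7 melanoma markers (Mitf, Tyr, Tyrp1, Dct, Pmel, Mlana and Sox10) were tested, with summed levels, in linear units after normalization, of 174841 to 194322 with the empty vector, 157275 to 167349 with FoxD3 and 160039 to 176584 with FoxD3-VP16. With FoxD3, Sox10, a neural crest and melanocyte transcription factor, rose by 0.73 (adjusted p = 0.00287, limma), and Mitf, the master factor of melanocytes, fell by 1.09 (adjusted p = 0.00483). With FoxD3-VP16, Sox10 fell by 0.72 against the empty vector (adjusted p = 0.0178). Counts of markers higher and lower with the replicate block were 1 and 3 with FoxD3 and 1 and 3 with FoxD3-VP16, the additional genes being among Mitf, Tyr, Tyrp1 and Mlana. Of all tested genes the block called 11.8% higher and 9.21% lower with FoxD3, and 5.73% and 5.41% with FoxD3-VP16. Without the block these shares were 2.89% and 1.12% with FoxD3, and 0.522% and 0.0733% with FoxD3-VP16. Against FoxD3, with FoxD3-VP16, Mitf and Tyr rose and Sox10 fell, and the block added Mlana. In that comparison 4.44% of all tested genes were called higher and 5.13% lower, and 14.6% and 17.5% with the block. Of 7 fibroblast markers 4 were tested. Pdgfrb, a growth factor receptor of mesenchymal cells, rose by 1.84 with FoxD3 and by 1.60 with FoxD3-VP16 (adjusted p = 0.00237 and 0.0240, limma). Pdgfra, the related receptor, was higher by 1.21 with FoxD3 (adjusted p = 0.0672, and 0.0191 with the block), Fap and Pdpn were called in no comparison, and Dcn, Lum and Thy1 were dim. Summed fibroblast marker levels were 1055 to 1675, 1513 to 2199 and 1344 to 2211 in the 3 groups in the same order. Of 7 chondrocyte markers 6 were dim and the tested one, Matn3, was not called. All 5 endothelial markers and 3 of the 4 leukocyte markers on the array were dim, and the tested leukocyte marker, Cd68, was not called. The part of these levels in the collagen changes was not tested.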

How the data were processed

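The starting point was the linear intensity that the authors deposited for each probe set, made with MAS5 per the submitters' processing notes, with no version stated. Detection calls were not used here. Per the labels, the authors also analysed the arrays in dChip. The deposited intensity values have the same mean on every array without their lowest and highest 2%, but medians of log2(intensity + 16) spanned 0.79 between arrays, above the limit of 0.5 for quantile normalization. The 64 control probe sets were left out, 34945 probe sets had 1 symbol in the platform annotation, 932 several and 9160 none, and the last 2 kinds entered no test.

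Limma 3.58.1 in R 4.3.3 was fitted with an intensity trend over all 12 arrays (9 residual and 3.98 prior degrees of freedom), tested on simulated data, and adjusted over the 10916 genes tested. The alternative with the replicate number as a block has 6 and 7.30. Replicate numbers come from the sample titles. Deviations from the group means correlated at 0.37 to 0.67 between groups for same-numbered arrays (12 pairs). Arrays 3 with arrays 4 gave 0.37 to 0.54 (6 pairs), within the range of same-numbered arrays, and the remaining 30 pairs -0.51 to 0.12. The numbers were read as pairs, though these correlations do not tell numbers 3 and 4 apart.

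The members and the 11 lists beside them (98 genes, 91 on the array, 46 tested) were chosen with earlier results of these data known. Named with values on every array are members called in either fit and Col1a1, Col1a2, Col2a1, Col3a1, Col4a1 and Col4a2; other members are named where groups do not overlap; up to 4 called genes of each list are named. Any other list gene was named after its values were seen. Alternatives were pseudocounts of 1 and 64, values as deposited, no limit on dim genes, other probe set rules, array weights, and leaving out arrays.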

Additional observations from a re-analysis of the deposited data

Results flagged for a closer look

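Within the groups of the 15 genes given array by array, 45 groups of 4 arrays were examined for a single array standing far from the others, a check that chance alone meets in about 1 in 20 groups, and 3 met it. Col4a2 lay at 8.15 on FoxD3 array 2, the nearest other FoxD3 array being at 8.89. Col7a1 lay at 8.64 on the same array, with the nearest at 9.50. Col9a3 lay at 9.96 on FoxD3 array 1, with the nearest at 8.91.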

How the results depend on the processing

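Col2a1, Col11a2, Col7a1, Col27a1 and Col16a1 kept their direction and passed the threshold in all 22 alternatives for FoxD3 against the empty vector. The calls of Col1a1, Col5a1 and Col9a3 that were lost are given with the results above. The count of collagen chain genes called in that comparison was 8, became 13 with array weights (which raised the calls over all genes from 438 to 4193), and ran from 5 to 9 when each array was left out in turn, with 5 without empty-vector array 3 and 5 without FoxD3 array 3. For FoxD3-VP16 against the empty vector the count was 0, became 2 with the replicate block and 7 with array weights (all genes: 65, 1217 and 3465 calls), and ran from 0 to 1 on leaving out an array. For FoxD3-VP16 against FoxD3 it was 9 and ran from 8 to 12. The calls over all genes in the fits with an array left out are not set beside these counts. The replicate block changed no other call than those given beside the results. Directions turned in 2 values that passed in no alternative, both for FoxD3-VP16 against the empty vector: Col1a2 was at -0.22 with the mean of all probe sets, at -0.11 with the arrays numbered 1 left out, and from -0.28 to 0.43 on leaving out an array; Col2a1 was at -0.15 with array weights and from -0.16 to 0.43 on leaving out an array. The cause was not tested. Signal over background limits the 24 dim members, and 4 arrays a group limit the precision of the rest. None of the dim members passed when tested without the limit, where few of all genes did in the comparisons counted.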
